A study of Homo sapiens with 12 samples.

Results

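Transcript levels of 9 genes of fatty acid oxidation were measured by RNA-seq in A375 cells, an established human malignant melanoma line. The genes were CPT1A, CPT2, ACADVL, ACADM, ACADS, ECI1, ACAA2, EHHADH and ETFDH. They were taken by symbol, and all 9 were found among the 4918 genes analysed here, whose symbols run in alphabetical order from A1BG to FAM46B. Genes with later symbols, HADHA, HADHB and PPARA among them, were not analysed here. The 12 samples fell into 4 groups of 3: control cells, labelled as untreated, and cells exposed for 24 h to SB-3CT, to IFNγ, or to SB-3CT with IFNγ. SB-3CT is a small-molecule inhibitor of the gelatinases MMP2 and MMP9, and IFNγ is the cytokine through which activated T cells induce, among other genes, CD274, which encodes PD-L1. The labels of these samples give no dose, and the treatment text mentions a vehicle that the control labels do not name. All samples came from 1 cell line, and the labels do not state that the 3 samples of a group were separate cultures. The study says in general terms that its experiments were done 3 times independently. That statement stands in a figure legend that also covers the A375 RNA-seq, without naming these samples. If they were not separate cultures, the p-values below measure only technical spread.

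Fatty acid oxidation takes place mainly in the mitochondrial matrix. A long-chain fatty acid is first activated to its acyl-CoA, loaded onto carnitine by CPT1A at the outer mitochondrial membrane, and returned to CoA by CPT2 at the inner membrane. The matrix enzymes then shorten the chain in cycles: an acyl-CoA dehydrogenase matched to chain length (ACADVL for very long and long chains, ACADM for medium, ACADS for short) removes electrons, which ETFDH passes to ubiquinone, and ACAA2 is a thiolase that releases acetyl-CoA at the end of a cycle. ECI1 moves the double bond of unsaturated fatty acids into the position the cycle can use, and EHHADH carries out the middle steps of the separate peroxisomal pathway. The step catalysed by CPT1A is the one inhibited by malonyl-CoA, and it is regarded as the main control point of entry into the pathway.

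The samples were checked before the members were read. CXCL10, a chemokine gene induced by IFNγ, averaged 0.0167 FPKM in control samples and had a value of 0 in each sample given SB-3CT alone. It reached 81.7 ± 3.97 FPKM under IFNγ and 112 ± 13.7 FPKM under both agents (mean ± SD, n = 3 here and throughout). CD274 averaged 0.543 FPKM in control, 0.630 under SB-3CT, 21.7 under IFNγ and 14.7 under both. All 5 markers of the dedifferentiated melanoma state that were looked for (AXL, CDH2, EGFR, CYR61 and CTGF) were present, with a sum of 83.4 to 127 FPKM per sample. The 4 melanocyte markers summed to between 5.08 and 15.2 FPKM. In every sample the melanocyte enzyme gene DCT stayed at or under 0.384 FPKM and CAPN3 at or under 0.322, while EDNRB lay between 3.995 and 6.81. BCL2A1 averaged 0.784 FPKM in control, 0.798 with SB-3CT, 6.89 with IFNγ and 8.87 with both, so the sum was higher in the groups given IFNγ. Of the markers of other cell types in the table, the T and B cell, myeloid, fibroblast and endothelial sets each summed to no more than 0.660 FPKM in a sample, and the keratinocyte set to no more than 1.37. The smallest steps between low values placed the relative depth of the libraries between 87.0% and 150% of the control mean, with ranges that overlapped between groups, and replicate samples correlated at 0.9961 to 0.9978 over all genes. FPKM is a share of all fragments of a library, so that fewer transcripts of a gene and more of other transcripts cannot be told apart in these values.

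One property of the table touches every result in the samples given both agents. On the deposited scale the median log2 change of the 3177 genes with a mean of at least 1 FPKM was -0.20 between SB-3CT with IFNγ and IFNγ alone, and -0.21 between SB-3CT with IFNγ and SB-3CT alone. Scaling every sample so that its median gene matched a common reference, the geometric mean per gene (median ratio scaling below), brought these medians to 0.02 and 0.01. Of the genes that passed the test, the share that was higher went from 16.9% to 51.6% in the first comparison, from 19.4% to 57.3% in the second, from 43.4% to 54.4% between IFNγ and control, and from 21.2% to 59.9% for the interaction of the 2 agents. Each change is therefore given on both scales where they differ in the call, and a call that held on both did not rest on this choice. Unless stated otherwise, FPKM values of samples, and statements that samples overlap or lie apart, are on the deposited scale.

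The 9 members covered a wide range of levels. In control samples ACADVL was the highest at 137 ± 2.83 FPKM, a level above 96.4% of the genes analysed, and ECI1 came next at 60.5 ± 4.78 FPKM. ACADM followed at 19.9 ± 0.954, CPT2 at 9.35 ± 0.701, ACAA2 at 8.48 ± 0.190, CPT1A at 6.16 ± 0.366, ACADS at 4.73 ± 0.0543 and ETFDH at 3.71 ± 0.377 FPKM. EHHADH was the lowest at 0.697 ± 0.216 FPKM, and it was the member whose mean over all samples was under 1 FPKM. No pair of neighbours in this order overlapped in the control samples, although CPT2 and ACAA2 came within about 0.1 FPKM of each other in single samples. All 9 members were detected above 0 in each of the 12 samples. ACADVL alone made up 54.6% of the summed FPKM of the members in control samples and 50.7% to 55.5% across the 4 groups. The sum itself was 250.1 ± 7.54 FPKM in control, 282 ± 13.1 under SB-3CT, 240.3 ± 10.3 under IFNγ and 237 ± 6.20 under both.

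**Figure D1:**
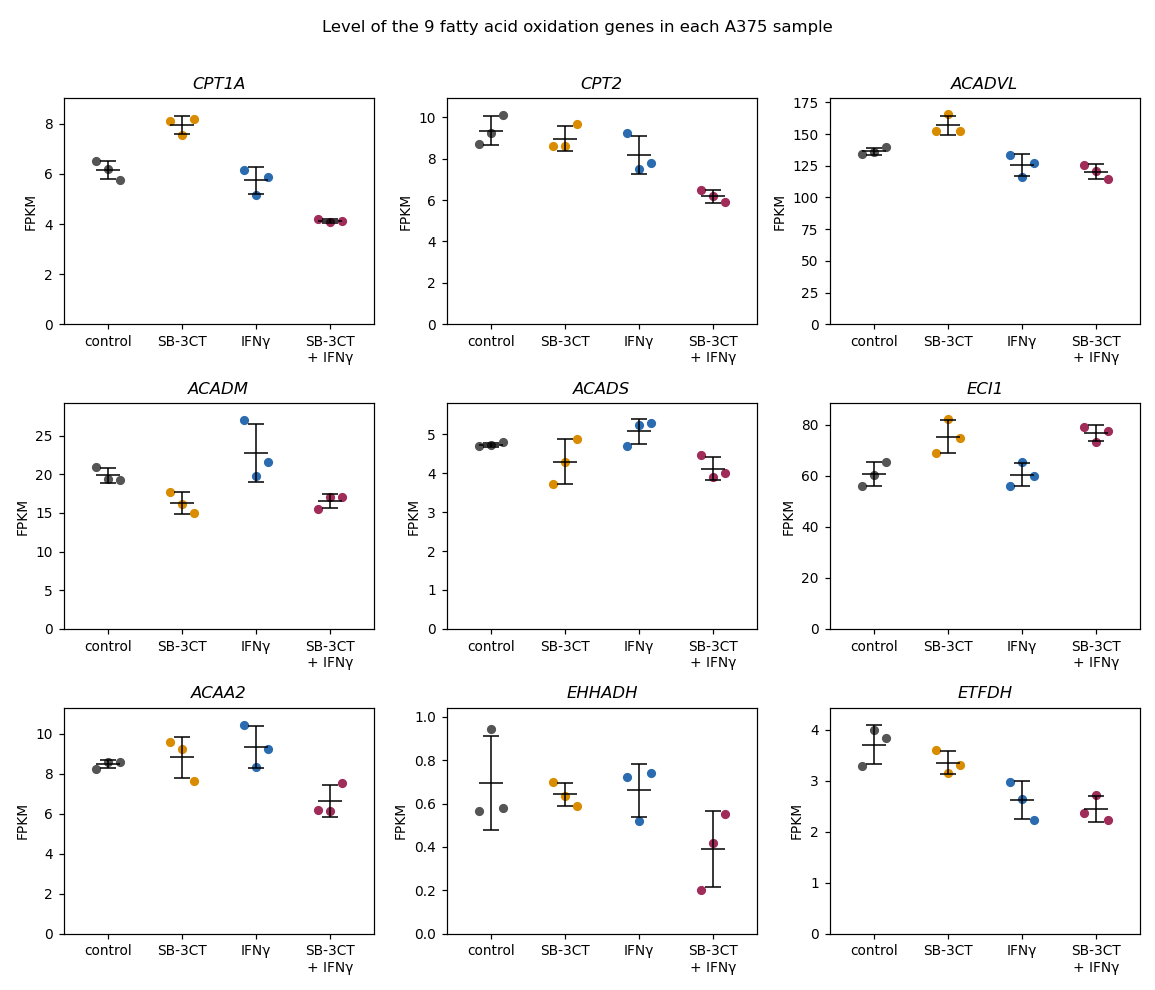
FPKM of each of the 9 members in each sample, in 4 groups of 3 samples: points are samples and black bars are the group mean with 1 SD, on a linear axis that starts at 0 and has its own range for each gene. CPT1A rises above control in all 3 SB-3CT samples and lies between 4.07 and 4.19 in the 3 samples given SB-3CT with IFNγ, below every other sample, while ECI1 is high in both groups given SB-3CT.

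The 4 comparisons gave different counts of members past the test, limma with a Benjamini-Hochberg adjusted p under 0.05 over all 4918 genes. Between SB-3CT and control 3 members were higher (CPT1A, ACADVL and ECI1) and 1 lower (ACADM), where 5.37% of all genes were called higher and 6.87% lower. After median ratio scaling 2 were higher and 1 lower, against 7.36% and 6.47% of all genes, and ECI1 was the member lost. Between IFNγ and control no member was called in either direction on either scale, against 8.46% higher and 11% lower of all genes, or 12.1% and 10.2% with median ratio scaling. At an unadjusted p under 0.05, 1 member, ETFDH, was lower with IFNγ and 0 were higher. The share of all genes at that unadjusted threshold was not counted, so these counts cannot be set against the whole table.

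Between SB-3CT with IFNγ and IFNγ alone, 1 member was higher (ECI1) and 4 were lower (CPT1A, CPT2, ACADM and ACAA2). On that scale 6.41% of all genes were called higher and 31.5% lower, so 4 of 9 members lower lies close to the share of the whole table. Once scaled, 2 members were higher (ECI1 and ACADVL) and 0 lower, against 16.5% and 15.5% of all genes, and CPT1A was the only member on the lower side whose 95% interval excluded 0. Between SB-3CT with IFNγ and SB-3CT alone, 5 members were lower (CPT1A, CPT2, ACADVL, ACAA2 and ETFDH) and 0 higher, with 32.7% of all genes lower and 7.85% higher. Once scaled, 1 member was lower (CPT1A) and 1 higher (ACADM), against 10.2% and 13.7%.

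Whether the change with SB-3CT differed between cells with and without IFNγ was tested as an interaction over all 12 samples. It was negative for CPT1A, ACAA2 and ACADVL and called positive for 0 members, where 17.6% of all genes were called negative and 4.74% positive. CPT1A was the member left with median ratio scaling, against 5.23% of all genes negative and 7.81% positive. The median log2 change of the 9 members lay at -0.26 between SB-3CT with IFNγ and IFNγ alone, beside -0.09 over all genes and -0.20 over the 3177 genes with a mean of at least 1 FPKM, a level that 8 of the 9 members reached. With median ratio scaling it lay at -0.13, beside -0.00 and 0.02.

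**Figure D2:**
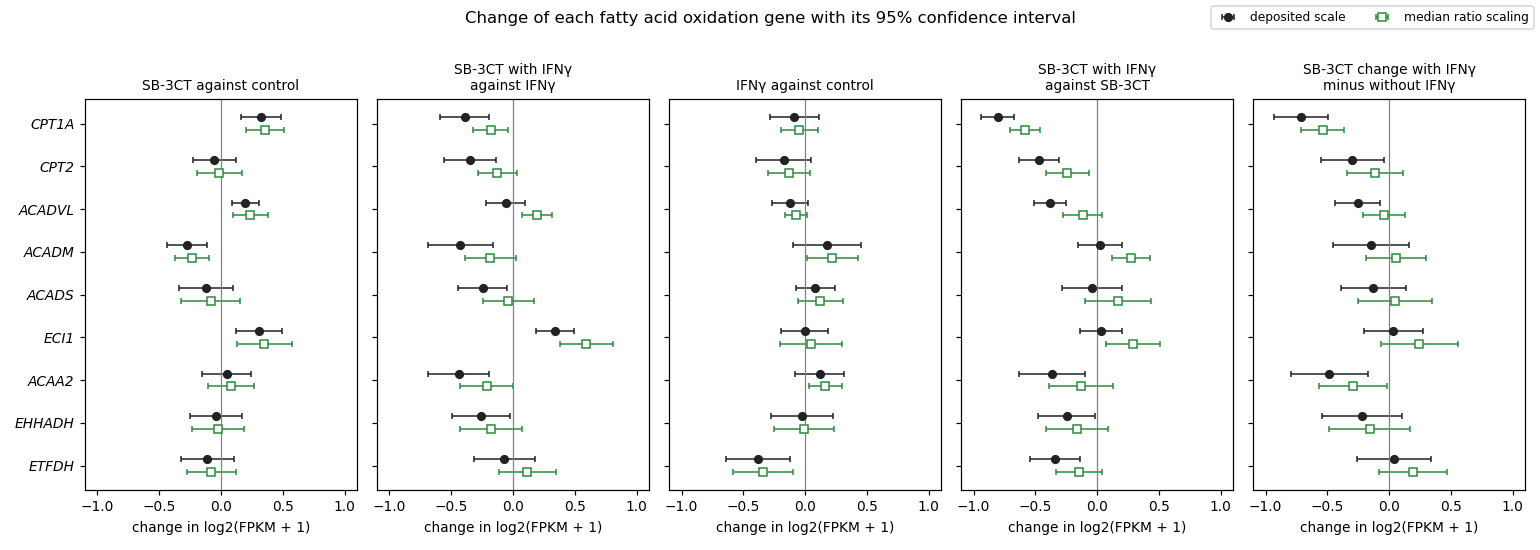
Change in log2(FPKM + 1) of each member in the 4 comparisons and in the interaction, with 95% confidence intervals: filled circles are the deposited scale, open squares the median ratio scaling, n = 3 samples per group. CPT1A lies at 0.32 with SB-3CT against control, at -0.80 for both agents against SB-3CT and at -0.72 in the interaction, on the same side of 0 on both scales, while most intervals for the other members in the samples given both agents reach 0 once scaled.

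CPT1A, the carnitine acyltransferase of the outer membrane (chromosome 11, 68522088 to 68611878, minus strand, hg19, 19 exons in its canonical transcript), had the largest interaction of the members. Its level was 6.50, 6.20 and 5.77 FPKM in the control samples, and 8.11, 7.55 and 8.18 FPKM with SB-3CT. With IFNγ it was 6.17, 5.15 and 5.89 FPKM, and with SB-3CT and IFNγ 4.19, 4.07 and 4.10 FPKM. The 3 SB-3CT samples thus lay above, and the 3 samples given both agents below, all other samples, while IFNγ and control overlapped. The mean rose by 29.1% with SB-3CT alone (log2 change 0.32, SE 0.068, adjusted p = 0.0291; 0.36, adjusted p = 0.019, with median ratio scaling). In the presence of IFNγ the SB-3CT samples were 28.1% lower (-0.39, SE 0.084, adjusted p = 0.00993), a call that median ratio scaling took to -0.18 with an adjusted p of 0.06. Quantile normalization took it to -0.10 (adjusted p = 0.273), and removal of the trend over transcript length to -0.02 (adjusted p = 0.72). The size of this fall thus depended on the processing. IFNγ alone gave -0.09 (95% interval -0.29 to 0.11).

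When IFNγ was added to SB-3CT, CPT1A fell by 48.1% (-0.80, SE 0.055, adjusted p = 0.000312), and this fall passed the test with median ratio scaling (-0.58, adjusted p = 0.000877), with quantile normalization (-0.60, adjusted p = 0.000696) and with the trend over transcript length removed (-0.58, adjusted p = 0.0011). The interaction was -0.72 (SE 0.10, adjusted p = 0.0032) and -0.54 (adjusted p = 0.00362) with median ratio scaling. It was called under 20 of 20 alternatives, over which it ranged from -0.83 to -0.43. The rise with SB-3CT alone was less firm: it kept its sign in each of the 6 fits that left out a sample (0.28 to 0.36), but was called in 1 of them, the fit without SB-3CT sample 1, with adjusted p from 0.0411 to 0.107.

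CPT2, the acyltransferase of the inner membrane (chromosome 1, 53662464 to 53679869, plus strand, 5 exons), differed little between control and SB-3CT. Its level was 8.70, 9.26 and 10.1 FPKM in control, 8.61, 8.62 and 9.69 with SB-3CT, 9.25, 7.52 and 7.80 under IFNγ, and 6.50, 6.18 and 5.89 with both. The first 3 groups overlapped, and the samples given both agents lay below all others. In the combined samples CPT2 was 24.4% below its level under IFNγ (-0.35, SE 0.090, adjusted p = 0.0192) and 31.1% below that under SB-3CT (-0.47, SE 0.066, adjusted p = 0.00307). After scaling these were -0.13 (adjusted p = 0.2) and -0.24 (adjusted p = 0.0577). The first call was also lost without IFNγ sample 3 or without sample 2 or 3 of the combined group. Its change with SB-3CT alone was -0.05, with an interval of -0.23 to 0.12 that leaves out the value of CPT1A. A lncRNA gene on the opposite strand covers 34% of the CPT2 transcript, and since the sources used here do not state whether reads were counted by strand, reads of both cannot be told apart there.

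ACADVL, the dehydrogenase of the inner membrane that starts the shortening of long chains (chromosome 17, 7120444 to 7128585, plus strand, 20 exons), was the most abundant member in all 4 groups. It measured 134, 136 and 140 FPKM in control, 153, 166 and 152 with SB-3CT, 133, 116 and 127 under IFNγ, and 126, 121 and 114 with both. The SB-3CT samples lay above all others. ACADVL rose by 14.8% with SB-3CT alone (0.20, SE 0.047, adjusted p = 0.0384; 0.24, adjusted p = 0.0447, with median ratio scaling), and leaving out any sample but SB-3CT sample 1 took this call away (adjusted p up to 0.127). Against SB-3CT alone, the combined samples were 23.2% lower (-0.38, SE 0.053, adjusted p = 0.00308), which was called in 14 of 15 alternatives and lost with median ratio scaling (-0.12, adjusted p = 0.26). Against IFNγ alone the sign itself depended on the scale: -0.06 (adjusted p = 0.544) as deposited, and 0.19 (adjusted p = 0.0263) with median ratio scaling.

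ACADM, the medium-chain dehydrogenase (chromosome 1, 76190116 to 76253260, plus strand, 12 exons), was the member that fell with SB-3CT alone. Its values were 21.0, 19.4 and 19.2 FPKM in control, 17.7, 16.1 and 14.9 with SB-3CT, 27.0, 19.7 and 21.5 under IFNγ, and 15.5, 17.1 and 17.1 with both. Both groups given SB-3CT lay below both groups without it, with no overlap. The fall was 18.2% without IFNγ (-0.28, SE 0.070, adjusted p = 0.045; -0.24, adjusted p = 0.043, with median ratio scaling) and 27.2% with IFNγ (-0.43, SE 0.11, adjusted p = 0.0205; -0.18, adjusted p = 0.16, scaled). Between the samples given both agents and SB-3CT alone the call depended on the scale, at 0.03 (adjusted p = 0.819) as deposited and 0.27 (adjusted p = 0.0259) with median ratio scaling. The interaction was -0.15 (95% interval -0.46 to 0.16), so a difference between the falls was not detectable. Leaving out a sample took the first call away in 5 of 6 fits (adjusted p up to 0.146) and the second in 4 of 6 (up to 0.0847).

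ACADS, the short-chain dehydrogenase (chromosome 12, 121163577 to 121177811, plus strand, 10 exons), passed the test in no comparison on the deposited scale as fitted, but was called lower against IFNγ in 6 of 15 alternatives. It measured 4.69, 4.71 and 4.79 FPKM in control, 3.72, 4.29 and 4.87 with SB-3CT, 4.71, 5.23 and 5.27 under IFNγ, and 4.46, 3.89 and 4.01 with both. On the deposited scale the combined samples lay below the control and the IFNγ samples, and against the latter the change was -0.25 (adjusted p = 0.0542; -0.04, adjusted p = 0.787, with median ratio scaling). Scaled means were 4.73 FPKM in the combined samples and 4.39 in control. Set side by side, the changes of the 3 dehydrogenases with SB-3CT alone were 0.20 for ACADVL and -0.28 for ACADM, whose intervals do not meet, and -0.12 (interval -0.34 to 0.10) for ACADS.

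ECI1, the enoyl-CoA isomerase used for unsaturated chains (chromosome 16, 2289403 to 2302301, minus strand, 7 exons), was the member that rose with SB-3CT in the presence of IFNγ on both scales. It measured 55.9, 60.3 and 65.4 FPKM in control and 56.1, 65.2 and 59.9 under IFNγ, and 69.0, 82.1 and 74.6 with SB-3CT and 79.2, 73.2 and 77.5 with both. All 6 samples given SB-3CT lay above the 6 without it. With IFNγ present the rise was 26.9% (0.34, SE 0.066, adjusted p = 0.00689; 0.59, adjusted p = 0.00491, with median ratio scaling), and it was called in 15 of 15 alternatives. Without IFNγ it was 24.3% (0.31, SE 0.079, adjusted p = 0.0469), a call lost with median ratio scaling (0.35, adjusted p = 0.051) and without any sample but SB-3CT sample 1. The interaction was 0.03 (95% interval -0.21 to 0.27). IFNγ by itself gave -0.00 (interval -0.19 to 0.19).

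ACAA2, the thiolase (chromosome 18, 47308534 to 47340323, minus strand, 10 exons), was lowest in the samples given both agents. Its values were 8.26, 8.60 and 8.59 FPKM in control, 9.58, 9.25 and 7.62 with SB-3CT, 10.4, 8.36 and 9.22 under IFNγ, and 6.19, 6.15 and 7.54 with both. The highest combined sample lay just under the lowest SB-3CT sample, and the other 3 groups overlapped. ACAA2 was 29.0% lower than with IFNγ alone (-0.44, SE 0.11, adjusted p = 0.0151) and 24.8% lower than with SB-3CT alone (-0.36, SE 0.11, adjusted p = 0.0408). Its interaction was -0.48 (SE 0.14, adjusted p = 0.0315). On the scaled values these were -0.21 (adjusted p = 0.12), -0.13 (adjusted p = 0.44) and -0.29 (adjusted p = 0.154), and leaving out a sample took the call away in 4 of 6, 4 of 6 and 9 of 12 fits. A gene model on the same strand overlaps 13.2% of the ACAA2 transcript.

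EHHADH, the bifunctional enzyme of the peroxisome (chromosome 3, 184908412 to 184999778, minus strand, 7 exons), was too low for a firm reading. It measured 0.564, 0.946 and 0.580 FPKM in control, 0.699, 0.637 and 0.590 with SB-3CT, 0.723, 0.519 and 0.743 under IFNγ, and 0.202, 0.417 and 0.552 with both. The combined group held the 2 lowest samples, but its values spread by more than those of the SB-3CT group and overlapped with IFNγ. No comparison passed the test, and the smallest adjusted p was 0.0784, at -0.26 (95% interval -0.50 to -0.03) against IFNγ. The combined mean was 41.0% lower than with IFNγ, and 39.2% lower than with SB-3CT, whose samples it did not overlap. At this level the 1 added before the log makes a change smaller. With a pseudocount of 0.1 the change against IFNγ was -0.69 in limma (adjusted p = 0.102).

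ETFDH, the oxidoreductase that hands electrons from the dehydrogenases to ubiquinone (chromosome 4, 159593120 to 159631894, plus strand, 13 exons), was low in the samples given IFNγ. It measured 3.28, 3.998 and 3.85 FPKM in control and 3.61, 3.15 and 3.31 with SB-3CT, against 2.97, 2.64 and 2.24 with IFNγ and 2.37, 2.72 and 2.23 with both. All 6 samples given IFNγ lay below the 6 without it. Without SB-3CT the difference was -0.38 and just missed the threshold (adjusted p = 0.0525; 6 of 15 alternatives called it), and with SB-3CT ETFDH fell by 27.2% (-0.34, SE 0.083, adjusted p = 0.0205; -0.15, adjusted p = 0.216, with median ratio scaling). This call was lost without sample 1 or 3 of either group. ETFDH shares 16% of its transcript with PPID on the opposite strand, with the same limit as for CPT2.

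Ratios between members of one sample do not change when all genes of that sample are scaled by a common factor, and they are given here for 4 pairs of members. They can still carry a trend over transcript length, which is 5238 bases for CPT1A and 1507 for ECI1. With that trend removed, the change of the combined samples against IFNγ was -0.02 for CPT1A and 0.33 for ECI1, beside -0.39 and 0.34 as deposited. The ratio of CPT1A to CPT2 was 0.747, 0.669 and 0.572 in control and 0.942, 0.876 and 0.844 with SB-3CT. It was 0.667, 0.684 and 0.755 with IFNγ and 0.645, 0.659 and 0.697 with both. The SB-3CT samples lay above the rest, and the other 3 groups overlapped, so the lower levels of both transferases in the combined samples left their ratio within the range of control. The ratio of CPT1A to ECI1 was 0.102 ± 0.014 in control, 0.106 ± 0.013 with SB-3CT, 0.0958 ± 0.016 with IFNγ and 0.0538 ± 0.0015 with both, where its 3 values were below all others. The ratio of ACADM to CPT1A was 3.23 ± 0.095 in control and 2.05 ± 0.19 with SB-3CT, and 3.95 ± 0.37 and 4.02 ± 0.28 in the groups given IFNγ alone and with SB-3CT. That of ECI1 to CPT2 was 6.47 ± 0.044 in control, 8.41 ± 0.97 with SB-3CT, 7.47 ± 1.3 with IFNγ and 12.4 ± 0.69 with both. With 3 samples against 3 an exact permutation test of such a ratio cannot give a two-sided p under 0.1, and none was run.

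**Figure D3:**
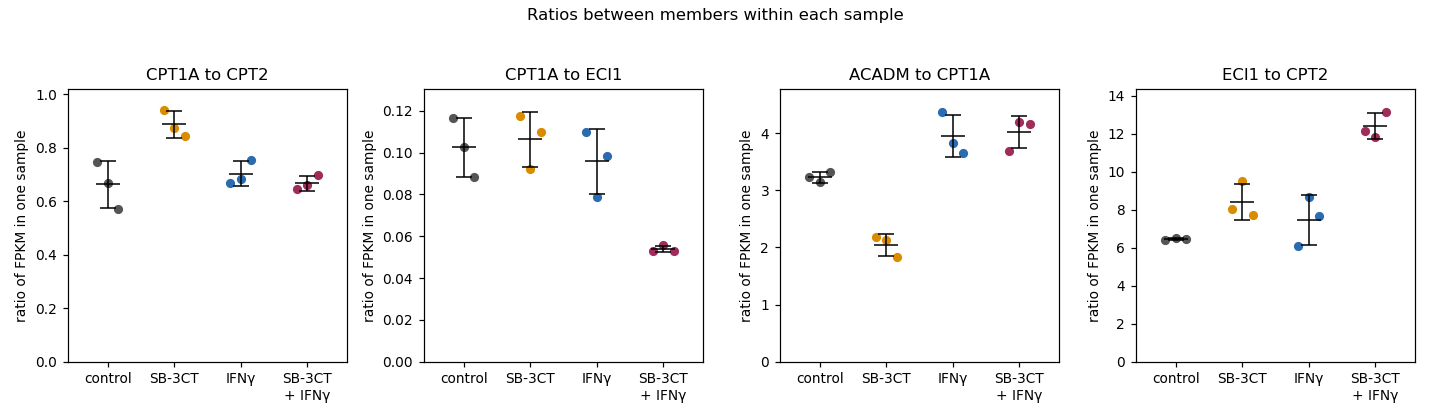
Ratios of FPKM between pairs of members within each sample, for the 4 groups of 3 samples: points are samples, black bars the mean with 1 SD, and the linear axes start at 0. The ratio of CPT1A to CPT2 is highest with SB-3CT alone (0.844 to 0.942), and the ratio of CPT1A to ECI1 is lowest in the samples given both agents (0.0538 on average).

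Other genes related to the pathway were taken from lists written by hand, and whether each acts in it was not checked. Of 13 further genes listed for mitochondrial beta-oxidation, 1 was higher and 2 were lower between SB-3CT with IFNγ and IFNγ (5 and 0 with median ratio scaling). Their median change was -0.07 beside -0.09 over all genes. In that comparison 6.41% of all genes were called higher and 31.5% lower (16.5% and 15.5% scaled). ECI2, a second enoyl-CoA isomerase, rose from 27.1 ± 2.2 to 35.5 ± 1.3 FPKM (0.38, adjusted p = 0.00501; 0.63, adjusted p = 0.00409, scaled). By comparison, ECI2 measured 26.4 FPKM in control and 25.4 with SB-3CT alone, and its interaction was 0.44 (adjusted p = 0.00559). ACAD9, which acts in the assembly of respiratory complex I, fell from 12.4 to 9.37 FPKM on the deposited scale (-0.37, adjusted p = 0.0112; -0.14, adjusted p = 0.14, scaled). With IFNγ alone, DECR1, the reductase for polyunsaturated chains, rose from 23.7 to 29.4 FPKM (0.30, adjusted p = 0.0159) and ETFA, a subunit of the flavoprotein that delivers electrons to ETFDH, fell from 115 to 91.9 FPKM (-0.32, adjusted p = 0.0211), both also with median ratio scaling. With SB-3CT alone 0 of the 13 passed the test in limma on the deposited scale, beside 5.37% of all genes higher and 6.87% lower. An unadjusted p under 0.05 was reached by 3 of the 13 (ACAD11, DECR1 and ECHS1), a threshold at which the share of all genes was not counted. With median ratio scaling 1 of the 13 was lower, ACAD11 (-0.33, adjusted p = 0.0486; -0.36, adjusted p = 0.0557, as deposited), which is named here after its values were seen.

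The genes that make, hold or hydrolyse acyl-CoA, the ACOT thioesterase genes among them, included larger changes than any member. Of 20 in the table, 4 were higher and 3 lower with IFNγ alone (4 and 2 scaled). Between SB-3CT with IFNγ and IFNγ, 2 were higher and 9 lower (5 and 4 scaled). Over all genes 8.46% were higher and 11% lower with IFNγ alone (12.1% and 10.2% scaled). In the second comparison these shares were 6.41% and 31.5% (16.5% and 15.5% scaled). ACSL5, a long-chain acyl-CoA synthetase, rose from 0.738 to 14.5 FPKM with IFNγ (3.15, adjusted p = 5.69e-06) and stood at 9.74 FPKM with both agents (-0.52 against IFNγ, adjusted p = 0.00374; -0.29, adjusted p = 0.0132, scaled). ACSL1 rose from 5.27 to 11.3 FPKM with IFNγ (0.98, adjusted p = 0.000618). ACSL3 fell in each of the 4 comparisons on both scales, from 38.6 FPKM in control to 23.0 with SB-3CT, 25.6 with IFNγ and 16.1 with both. ACSL4 fell with SB-3CT both without IFNγ (-0.48, adjusted p = 0.0319) and with it (-0.66, adjusted p = 0.0032). Of the 3 genes of malonyl-CoA synthesis, all were lower with both agents than with IFNγ and 1 of them, ACACA, an acetyl-CoA carboxylase, was lower on both scales (6.79 FPKM in control, 5.05 with SB-3CT, 5.25 with IFNγ and 3.37 with both; -0.51 against IFNγ, adjusted p = 0.00413).

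The list written for peroxisomal oxidation, the pathway of EHHADH, held 14 genes, all in the table. Between SB-3CT with IFNγ and IFNγ 0 were higher and 6 lower (4 and 4 scaled), with a median of -0.18 that became 0.00 with median ratio scaling. Beside these counts, 6.41% of all genes were higher and 31.5% lower (16.5% and 15.5% scaled). AMACR, the racemase for branched chains, fell from 21.2 FPKM in control to 12.4 with SB-3CT (-0.73, adjusted p = 0.000908), to 12.4 with IFNγ (-0.73, adjusted p = 0.00175) and to 8.45 with both. CAT, the catalase that removes the hydrogen peroxide of this pathway, was 36.1, 30.9, 25.9 and 17.1 FPKM in the same order of groups, and both AMACR and CAT passed the test in all 4 comparisons on both scales.

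Of 13 genes for branched-chain and ketone-body acyl-CoA, 5 were lower with IFNγ alone and 0 higher (4 and 0 scaled). The share of all genes was 11% lower and 8.46% higher (10.2% and 12.1% scaled). The 5 included BCKDHB, a subunit of the branched-chain keto acid dehydrogenase (-0.56, adjusted p = 0.00949), and ACAT1, the mitochondrial acetoacetyl-CoA thiolase (39.4 to 29.7 FPKM, -0.40, adjusted p = 0.00254). Of 7 genes that make or use acetyl-CoA around the citric acid cycle, 5 were lower with both agents than with IFNγ and 6 lower than with SB-3CT, or 2 and 3 with median ratio scaling. DLAT, a subunit of pyruvate dehydrogenase, was among these on both scales (12.5 FPKM in control, 11.2 with SB-3CT, 10.3 with IFNγ and 6.52 with both). The share of all genes that was lower with both agents was 31.5% against IFNγ and 32.7% against SB-3CT, or 15.5% and 10.2% scaled.

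Genes known as targets of the PPAR receptors, which control much of this pathway, moved in both directions. Of 13 in the table, 5 had a mean of at least 1 FPKM. With SB-3CT alone 1 of the 13 was higher and 1 lower, against 5.37% and 6.87% of all genes. Scaled, 2 were higher and 1 lower, against 7.36% and 6.47%. ANGPTL4, an inhibitor of lipoprotein lipase, rose from 1.05 to 6.19 FPKM with SB-3CT (1.80, adjusted p = 0.000152) and to 4.10 FPKM with IFNγ (1.31, adjusted p = 7.63e-05), while FABP7, a fatty acid binding protein, fell from 8.02 to 3.76 FPKM (-0.92, adjusted p = 0.00823). FABP5 rose from 128 to 207 FPKM between IFNγ and both agents (0.70, adjusted p = 0.00207). Of the 3 ERR genes 1 had a mean of at least 1 FPKM, ESRRA, whose protein binds promoters of oxidative genes. ESRRA was higher with SB-3CT both without IFNγ (55.0 to 66.7 FPKM, 0.27, adjusted p = 0.0454) and with it (50.5 to 57.4 FPKM, 0.18, adjusted p = 0.0374). Over all genes 5.37% were higher without IFNγ and 6.41% with it.

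**Figure D4:**
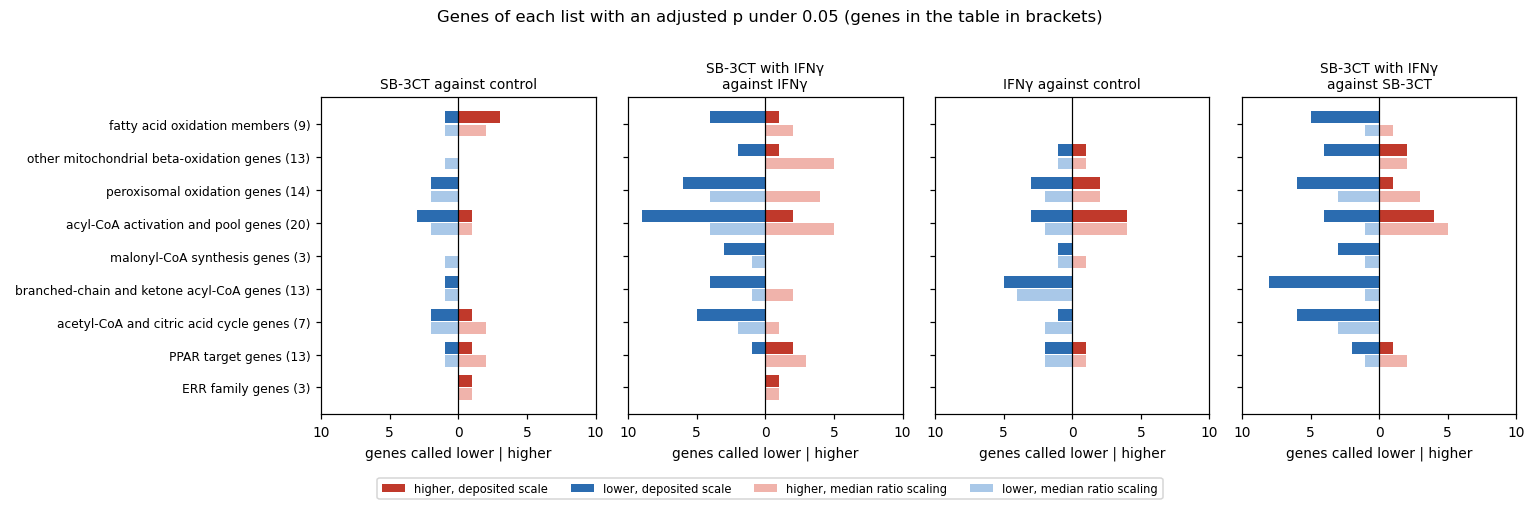
Number of genes of each list called higher (to the right) or lower (to the left) in the 4 comparisons at an adjusted p under 0.05, on the deposited scale (dark bars) and with median ratio scaling (pale bars), with the number of genes in the table in brackets. In both comparisons of the combined samples the longest bars are dark and on the lower side, and the pale bars on that side are shorter.

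The promoters of the members were read from the GRCh37 (hg19) genome, from 250 bases before to 50 bases after the start of the canonical GENCODE transcript. CPT1A and ECI1 are shown because they moved in opposite directions when SB-3CT was given with IFNγ on the deposited scale, and ACADS because it held the one match to the IFNγ-activated GAS element, marked in capitals. The windows are chr11:68609335-68609634 (minus strand), chr16:2301539-2301838 (minus strand) and chr12:121163379-121163678 (plus strand), each written 5′ to 3′ on the strand of the gene.
CPT1A: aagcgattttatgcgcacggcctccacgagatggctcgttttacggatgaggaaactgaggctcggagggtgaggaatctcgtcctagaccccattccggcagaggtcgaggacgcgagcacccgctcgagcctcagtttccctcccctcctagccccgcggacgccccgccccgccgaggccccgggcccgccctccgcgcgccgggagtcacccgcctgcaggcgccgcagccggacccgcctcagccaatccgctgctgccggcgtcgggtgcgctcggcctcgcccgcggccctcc
ECI1: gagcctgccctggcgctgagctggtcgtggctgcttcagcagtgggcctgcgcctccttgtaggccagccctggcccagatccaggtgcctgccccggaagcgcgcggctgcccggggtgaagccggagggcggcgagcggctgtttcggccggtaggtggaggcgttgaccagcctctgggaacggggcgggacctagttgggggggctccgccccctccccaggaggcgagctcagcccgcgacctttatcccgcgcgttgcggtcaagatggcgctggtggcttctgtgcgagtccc
ACADS: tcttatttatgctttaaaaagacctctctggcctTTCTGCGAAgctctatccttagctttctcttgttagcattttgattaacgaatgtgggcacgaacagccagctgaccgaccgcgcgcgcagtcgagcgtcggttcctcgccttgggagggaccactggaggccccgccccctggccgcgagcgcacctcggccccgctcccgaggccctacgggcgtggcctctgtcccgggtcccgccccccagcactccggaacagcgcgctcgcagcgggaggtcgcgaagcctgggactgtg

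The first 2 windows were 72% and 71.7% G and C, against a median of 63.7% over 19866 promoters of the same length. Both strands of the 9 member promoters were searched for 7 motifs. The GAS element (TTCNNNGAA) matched in ACADS, from 216 bases before the start, and in 6.51% of all promoters, and ACADS itself did not pass the test with IFNγ (0.08, 95% interval -0.08 to 0.24). The ATF4 element (TGATGNAA) matched in EHHADH, on the minus strand of the gene 227 bases before its start, and in 2.5% of all promoters. The nuclear receptor half-site (AGGTCA, in 11.2% of all promoters), the ERR element that contains it (TNAAGGTCA, 0.584%), the NRF1 core (GCATGCGC, 4.26%), the cAMP response element (TGACGTCA, 2.68%) and the E-box (CACGTG, 8.76%) matched in 0 of the 9. A match describes letters in these windows and is not evidence of a bound site.

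For each member the gene most like it was sought among the 3177 genes with a mean of at least 1 FPKM, by the Pearson correlation of log2(FPKM + 1) over the 12 samples, which share their libraries and 4 group means. CPT1A was most like BAHD1 (r = 0.976), a chromatin protein gene that measured 9.53, 10.7, 9.41 and 7.92 FPKM in control, SB-3CT, IFNγ and both. ECI1 was most like EIF4EBP1 (r = 0.985), the translation repressor gene controlled by mTOR signaling, at 341, 405, 333 and 413 FPKM in the same order. ACADVL was most like DDIT4 (r = 0.971), CPT2 like FADS1 (r = 0.965), a fatty acid desaturase gene, and ETFDH like CPVL (r = 0.956). The closest genes to ACAA2, ACADM, EHHADH and ACADS were CEP250 (r = 0.955), ACTR3 (r = 0.947), AKAP13 (r = 0.893) and ATOH8 (r = 0.867).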

How the data were processed

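RNA from A375 cells in 4 groups of 3 samples was sequenced by the authors as paired reads. Per the submitters' processing notes, reads were aligned to hg19 with HISAT2 2.0.5 and expression was computed with StringTie 1.3.3. The deposited values are on a log2 scale, read here as log2(FPKM + 1) from their range (highest 12.16) and sums, since no source used here states the log step or any further scaling between samples. The planned tests assumed FPKM and a log step, which was skipped. Each column was assigned to a sample by its name, and 0 columns were unused.

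Differences between groups were tested in R 4.3.3 by limma 3.58.1 (lmFit, eBayes with a variance trend, no block, only the 6 samples compared), and the interaction was fitted over all 12. P-values were adjusted by Benjamini-Hochberg over 4918 genes. Alternatives covered the pseudocount (0.1), a filter at 1 FPKM, median ratio scaling, quantile normalization, removal of a length trend, all groups in one fit, a replicate block, other variance models, thresholds on fold change, and leaving out each sample. The functions were tested on simulated data. The members, gene lists and tests were chosen with earlier results of these data known. Besides the members, CXCL10 and CD274, the text names genes from the up to 3 largest called changes per list and comparison (mean of at least 1 FPKM) and the gene most like each member. Some results under this rule are not reported here. Positions and promoters came from GENCODE release 44 on GRCh37, where 98.6% of the genes had a transcript length. No counts were used, so depth was judged from the steps between low values, with 66 of 66 sample pairs agreeing within 0.05 on the log2 scale.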

Additional observations from a re-analysis of the deposited data

Results flagged for a closer look

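In 3 members the change with SB-3CT differed between cells with and without IFNγ by limma's test of that difference over all 12 samples, where 17.6% of all genes were called negative and 4.74% positive. For CPT1A this difference, with minus without IFNγ, was a log2 value of -0.72 (adjusted p = 0.0032), and it was called in each of the 12 fits that left out a sample. On the deposited scale 3 of 3 SB-3CT samples lay above control and 3 of 3 combined samples below IFNγ. The second of these changes went from -0.39 to -0.02 with the length trend removed. For ACAA2 the difference was -0.48 (adjusted p = 0.0315) and for ACADVL -0.26 (adjusted p = 0.0456). With median ratio scaling these were -0.54 (adjusted p = 0.00362) for CPT1A, -0.29 (adjusted p = 0.154) for ACAA2 and -0.04 (adjusted p = 0.78) for ACADVL. Leaving out a sample kept the call of ACAA2 in 3 of 12 fits and that of ACADVL in 2 of 12.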

How the results depend on the processing

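Of the 17 member calls, 0 changed sign under any alternative that changed 1 choice, and 3 passed the test under every such alternative that kept its threshold: the CPT1A fall against SB-3CT, the CPT1A interaction and the ECI1 rise against IFNγ. Changing 2 choices together, median ratio scaling with the replicate block or with a sample left out, was added after seeing the data. It kept the sign of 16 of the 17 in every fit, and the ACADVL interaction was 0.01 without SB-3CT sample 2. Counts of members called are given in the order of the report. Calls over all genes stand above for median ratio scaling, and are given here for quantile normalization and the length trend. For the other alternatives, here and below, they are not given, so those counts cannot be set against the whole table. Median ratio scaling gave 2 higher and 0 lower for SB-3CT with IFNγ against IFNγ, 1 higher and 1 lower against SB-3CT, and 1 interaction. Quantile normalization gave 0 lower against IFNγ, 3 lower against SB-3CT and 1 lower for IFNγ against control. In the same order it called 714, 834 and 658 of the 4918 genes lower. With the length trend removed, SB-3CT against control gave 1 higher and 0 lower, beside 372 higher and 284 lower over all genes. The combined samples gave 0 lower against IFNγ and 3 lower against SB-3CT, beside 522 and 831 over all genes. In the interaction 1 member was left, beside 266 genes called negative and 472 positive. One fit of all 4 groups, or eBayes without trend, gave 0 lower for SB-3CT against control and 1 lower for IFNγ against control. The filter at 1 FPKM, and robust eBayes, also gave 1 lower for IFNγ against control, and in each of these fits that member was ETFDH. A fold change over 1.5 with an unadjusted p under 0.05, by limma or by a per-gene test on FPKM, left 0 higher and 0 lower for SB-3CT against control and for the combined samples against IFNγ, and 1 lower (CPT1A) against SB-3CT.

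The labels number the samples of each group 1 to 3, but same-numbered samples did not deviate together: their correlations were 0.041, -0.013 and 0.074 for SB-3CT and control, 0.090, 0.172 and -0.028 for IFNγ and control, -0.069, -0.064 and 0.044 for the combined samples and IFNγ, and -0.395, -0.236 and -0.085 for the combined samples and SB-3CT. The numbers were therefore not taken to pair the samples. With the replicate block, 0 members were higher for SB-3CT against control and 3 lower for the combined samples against SB-3CT.

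Leaving out each sample in turn gave 1 (without IFNγ sample 3 or combined sample 2) to 4 members lower for the combined samples against IFNγ. For SB-3CT against control it gave 0 to 3 higher and 0 to 1 lower, and for IFNγ against control 0 to 1 lower (1 without IFNγ sample 1). For the combined samples against SB-3CT it gave 3 (without SB-3CT sample 1 or combined sample 1) to 5 lower, and for the interaction 1 to 4. The interaction count was 1 without IFNγ sample 1 or 3, SB-3CT sample 1 or 2, combined sample 2 or any control sample. With 1 choice changed, signs turned for members that were not called in the report. After median ratio scaling the turned values were 0.19 for ACADVL and 0.11 for ETFDH against IFNγ, 0.17 for ACADS against SB-3CT, 0.05 for ECI1 between IFNγ and control, and 0.05 each for the interactions of ACADM and ACADS. Quantile normalization gave 0.06 for ACADS and 0.21 for ETFDH against IFNγ, 0.15 for ACADS against SB-3CT, 0.03 for ECI1 between IFNγ and control, and 0.03 and 0.09 for the interactions of ACADM and ACADS. With the length trend removed ACADVL was at 0.07, ETFDH at 0.17 and EHHADH at 0.03 against IFNγ, ACADS at 0.05 against SB-3CT, ECI1 at 0.01 between IFNγ and control, EHHADH at 0.01 between SB-3CT and control, and the EHHADH interaction at 0.02. Without 1 sample, ECI1 ranged from -0.06 to 0.05 between IFNγ and control, ETFDH from -0.15 to 0.00 against IFNγ and from -0.04 to 0.11 in the interaction, ECI1 from -0.03 to 0.09 in the interaction and against SB-3CT, ACADM from -0.03 to 0.08 and ACADS from -0.13 to 0.03 against SB-3CT, ACAA2 from -0.01 to 0.14 between SB-3CT and control, and EHHADH from -0.10 to 0.06 between SB-3CT and control and from -0.08 to 0.08 between IFNγ and control. Of 83 other named changes, 4 turned sign, all against IFNγ: ACLY (0.01), DBT (0.09) and BCAT1 (0.09) with the length trend removed, and BCKDHA (0.01) with median ratio scaling. The cause was not tested for any of these.

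With 3 samples per group and no counts, the smallest member change that passed the test on the deposited scale was a log2 value of 0.20, and EHHADH, under 1 FPKM, was limited by its level. Which scale is closer to the RNA content of the cells cannot be read from these files.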
